A study of Mus musculus with 4 samples.

Results

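The MHC class II presentation genes of the mouse gut were examined in Peyer's patches and in intestinal epithelial cells. The set held 9 genes, taken by symbol out of 18193 genes named on the array: H2-Aa, H2-Ab1 and H2-Eb1, which encode chains of the surface molecules, Cd74, which encodes the invariant chain, H2-DMa, H2-DMb1, H2-Oa and H2-Ob, which encode the peptide editors, and the transactivator gene Ciita. Of 34945 probe sets that name 1 gene, 16 named 1 of these genes and 3 more named a member together with a neighbour, so that H2-DMb1 had no probe set of its own and 8 genes did. All mice were C57BL/6 and were kept in vinyl isolators. They were either germ-free (GF) or GF mice given 100000000 bacteria of the single strain Lactobacillus NK318.1 (L.NK318.1), with cells isolated 2 weeks afterwards. The methods name mice 4 weeks old for oral transfer in general, and whether this holds for the mice of these arrays was not stated in the sources used here. There were 4 Affymetrix arrays, 1 for each tissue in GF and in colonized mice, and the study describes the RNA of a group as pooled from several mice. There were no replicates, so no test could be made and no spread between mice exists, and each difference given here is a ratio between a pair of arrays.

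MHC class II molecules display peptides from proteins that a cell has taken up, and CD4+ T cells read these peptides. The α and β chains pair in the endoplasmic reticulum with the invariant chain, which fills the groove until proteases of the endosome cut it down to a short remnant. H2-DM then exchanges the remnant for peptides, and H2-O, found mainly in B cells and some dendritic cells, restrains H2-DM. Transcription of most of these chains and editors depends on Ciita, which binds no DNA itself and is recruited by factors that sit on a conserved row of promoter boxes. In the gut, class II is known from the B cells and dendritic cells of the Peyer's patch, from macrophages, and from the enterocytes of the small intestine, where interferon γ raises it.

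The arrays differed in ways that touch every ratio below. The median signal, the deposited MAS5 intensity, was 23.1 in the GF Peyer's patch and at most 23.3 on the other arrays. The pan leukocyte gene Ptprc had a signal of 5152 (GF) and 5235 (colonized) on the Peyer's patch arrays and of 271 (GF) and 23.1 (colonized) on the epithelial arrays. The epithelial gene Epcam had 75.9 and 57.0 on the former and 3926 and 3623 on the latter, so the tissue labels fitted these markers. Xist, the RNA that coats an inactive X chromosome, had 21.7 and 46.7 on the GF arrays and 4586 and 4889 on the colonized arrays, and the Y-linked Kdm5d had 165 and 90.6 against 2.27 and 5.46. The sex of the pooled mice and colonization therefore cannot be told apart. The 3′ to 5′ signal ratio of actin, a measure of RNA breakage, was 1.60 (GF) and 1.74 (colonized) for the Peyer's patch arrays, and 2.73 (GF) and 4.10 (colonized) for those of epithelial cells. A signal under 15.5 was treated as not measurable (the floor), and a ratio in which 1 of the 2 arrays lay under the floor is a bound.

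The promoters of the class II genes are shown first, because Ciita acts through promoters of this kind and the members' values are read together. On GRCm38.p6, H2-Oa (chromosome 17, 34092379 to 34095234), H2-DMa (34119693 to 34139101), H2-DMb1 (34153191 to 34160229), H2-Ob (34238905 to 34245908), H2-Ab1 (34263227 to 34269418), H2-Aa (34282744 to 34287823) and H2-Eb1 (34305867 to 34316674) lie in 1 stretch of the MHC, and Ciita lies on chromosome 16, from 10480014 to 10531064. RefSeq promoters were at hand for 6 members, namely H2-Aa, H2-Eb1, H2-DMa, H2-DMb1, H2-Oa and H2-Ob. In 5 of these, letters of the first box (GCAAC, or GTAAC in H2-DMb1) stood 25 to 28 bases before ATTGG, which is CCAAT read on the other strand. They are set out 5′ to 3′ in the direction of the gene, with the capitals marking both boxes.
H2-Aa, minus strand, chr17:34287847-34287924: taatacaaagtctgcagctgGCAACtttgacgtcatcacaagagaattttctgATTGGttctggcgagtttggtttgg
H2-Eb1, plus strand, chr17:34305756-34305832: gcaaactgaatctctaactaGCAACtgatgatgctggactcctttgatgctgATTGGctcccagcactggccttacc
H2-DMb1, plus strand, chr17:34153077-34153154: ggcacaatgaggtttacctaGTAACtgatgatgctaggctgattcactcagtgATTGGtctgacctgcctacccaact
H2-Oa, plus strand, chr17:34092283-34092360: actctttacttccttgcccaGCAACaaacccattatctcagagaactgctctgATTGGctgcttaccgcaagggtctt
H2-Ob, plus strand, chr17:34238798-34238872: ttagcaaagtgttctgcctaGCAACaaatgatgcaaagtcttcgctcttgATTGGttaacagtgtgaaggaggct

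The spacing was much alike in these promoters. The first box began between 76 and 94 bases upstream of the gene's start and ATTGG between 43 and 61 bases upstream. GCAAC followed by ATTGG after 15 to 35 bases, on either strand within 250 bases upstream, was found in 4 of 6 members (H2-Aa, H2-Eb1, H2-Oa and H2-Ob) and in 0.988% of 27025 genes. With any base allowed at the second position (GNAAC), the pair was found in 5 of 6 members and in 3.42% of genes. Both pairs were written after these promoters had been read, so the counts describe the sequences and are no test. Of the motifs set earlier, CCAAT on either strand was present in 6 of 6 members and 37.5% of genes, and TAGCAAC in 2 of 6 members (H2-Eb1 and H2-Ob) and 3.71% of genes. CCAAT overlaps the pair, since it is the same box. H2-DMa had CCAAT in 1 of its 2 promoters and the pair in neither.

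The genes of the classical α and β chains had high signals in the Peyer's patch and lower but clear signals in the epithelial cells. H2-Aa, the α chain of I-A, had a signal of 7600 in the GF Peyer's patch, 6867 in the colonized Peyer's patch, 1194 in GF epithelial cells and 1051 in colonized epithelial cells. H2-Ab1, its β chain, had 5129, 4552, 390 and 393 in the same order. H2-Eb1, the β chain of I-E, had 5971, 5067, 360 and 403. The Peyer's patch arrays stood far above the epithelial arrays for each of these genes, and within a tissue the GF and colonized signals lay close to each other. C57BL/6 mice carry a deletion that silences H2-Ea, the α chain of I-E, and RefSeq lists it as a transcribed pseudogene. The brightest H2-Ea probe set had 106, 113, 198 and 131, and its other sets lay under the floor on all 4 arrays.

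Cd74 and Ciita followed the same order of tissues. Cd74 had 6439 in the GF Peyer's patch, 5709 in the colonized one, and 674 (GF) and 685 (colonized) in epithelial cells. The brightest of 3 probe sets of Ciita had 484 and 420 and then 35.4 and 37.1. The other sets of Ciita had 194 and 160, and 161 and 121, in the Peyer's patch, and their epithelial signals lay near or under the floor.

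Genes of the peptide editors were also far higher in the Peyer's patch, and H2-Ob was not measurable in epithelial cells. H2-DMa had 1639 in the GF Peyer's patch, 1299 in the colonized one, and 133 (GF) and 94.5 (colonized) in epithelial cells. H2-Oa, the α chain of H2-O, had 1493 and 994 and then 43.6 and 30.6. H2-Ob, its β chain, reached 1804 and 1617 in the Peyer's patch, but its epithelial signals of 6.75 and 2.68 were both under the floor. A set that H2-Ob shares with Gm20506 had 477 and 451 in the Peyer's patch, and 18.9 and 25.1 were read from epithelial cells, so a low signal under the name of either gene was seen there. The chain H2-DMβ is made by closely similar neighbouring genes, H2-DMb1 and H2-DMb2. Of the sets that name both, the brighter had 1471 (GF) and 1310 (colonized) in the Peyer's patch with 82.3 and 79.5 in epithelial cells. The dimmer had 409 and 375 with 43.6 and 50.5. The brightest set of H2-DMb2 alone had 2380, 2360, 25.3 and 43.2, and since signal cannot be divided between these copies, none of these values stands for H2-DMb1.

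**Figure D1:**
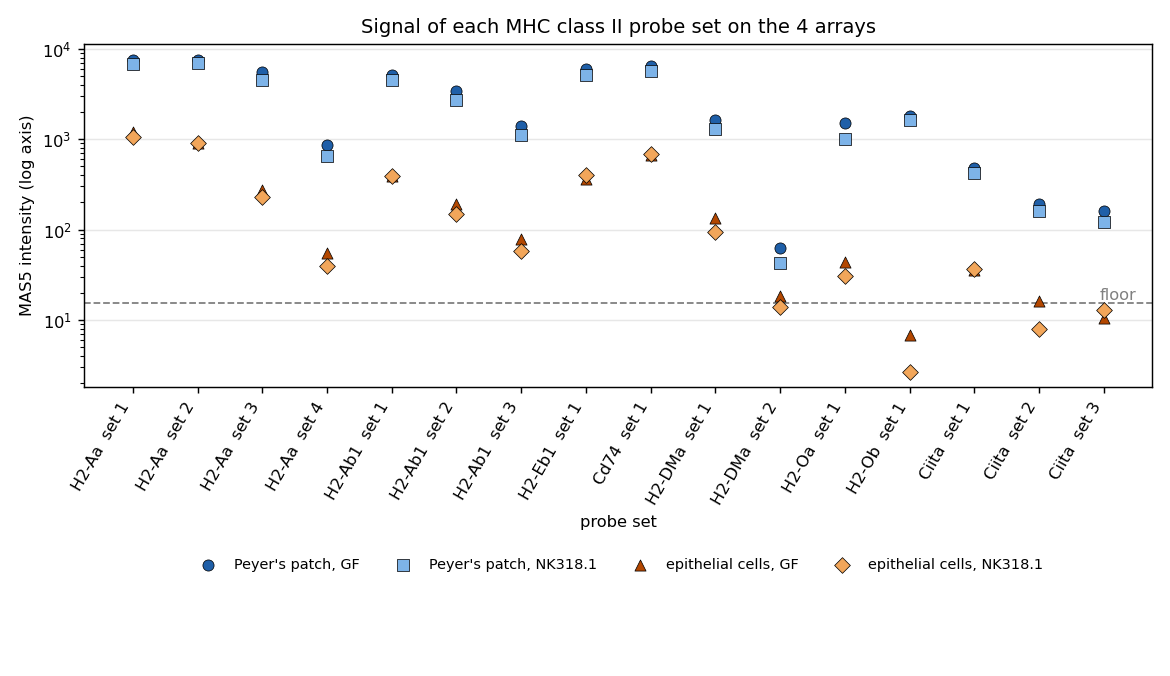
MAS5 intensity (log axis) of the 16 probe sets that name 1 class II gene, on the 4 arrays, with sets of a gene numbered from the brightest in the GF Peyer's patch and the dashed line at the floor of 15.5. In each set both Peyer's patch signals (circles, squares) lie above both epithelial signals (triangles, diamonds), and for H2-Ob and the third Ciita set both epithelial signals lie under the floor.

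Colonized and GF mice were first compared in the Peyer's patch, as the ratio of the colonized to the GF signal. All 8 genes were lower in the colonized Peyer's patch, by small amounts: the log2 ratios ran from −0.59 to −0.15 with a median of −0.19. No gene was past the 2-fold limit in either direction, against 0.573% of 12736 measured genes that were at least 2-fold lower and 0.149% that were at least 2-fold higher. Over all measured genes the median was −0.03, and 57.2% of genes were below 0. Fewer cells that express class II and less RNA per cell cannot be told apart in such bulk samples.

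H2-Oa had the lowest ratio of the members in the Peyer's patch. Its signal of 994 in colonized mice stood against 1493 in GF mice (log2 ratio −0.59), and 2.72% of the measured genes had a lower ratio. H2-DMa came next with −0.34, and 9.03% of genes lay below it. The ratios of H2-Eb1 and Ciita were −0.24 and −0.20, with 16.5% and 19.9% of genes below them. Cd74 (−0.17), H2-Ab1 (−0.17), H2-Ob (−0.16) and H2-Aa (−0.15) were nearest to 0, with between 23.8% and 27.7% of genes below. Each member lay inside the range from −0.60 to 0.41 that held the central 95% of all measured genes. Among the 666 genes with a signal over 1000 on both Peyer's patch arrays, a limit set after the data were seen, that range was −0.37 to 0.29. H2-Oa (−0.59) lay below this range, though its colonized signal of 994 left it just outside these genes.

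The other probe sets pointed the same way in the Peyer's patch. All 16 sets that name 1 member were below 0, from −0.59 to −0.11. The 4 sets of H2-Aa ran from −0.41 to −0.11, the 3 sets of H2-Ab1 from −0.35 to −0.17 and the 3 sets of Ciita from −0.41 to −0.20. The second set of H2-DMa, a dim one, had −0.58 (63.1 in GF and 42.2 in colonized mice). The sets shared by H2-DMb1 and H2-DMb2 had −0.17 and −0.12, and the set shared by H2-Ob and Gm20506 had −0.08. Probe sets of a gene are read on the same pair of arrays and are no replicates of the mice.

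In epithelial cells the members stayed near the level of GF mice and did not share a direction. Of 7 measured genes, 4 were above 0 and 3 below, with ratios from −0.51 to 0.16 and a median of 0.01, while the median of all 13874 measured genes was 0.02. No member was past the 2-fold limit, against 2.63% of measured genes that were at least 2-fold higher and 1.54% that were at least 2-fold lower. H2-Oa (−0.51) and H2-DMa (−0.49) were again the lowest. H2-Eb1 was the highest with 0.16. Ciita (0.07), Cd74 (0.02) and H2-Ab1 (0.01) were close to 0, and H2-Aa had −0.18. H2-Ob gave no ratio because both signals lay under the floor. Each measured member was inside the central 95% of genes, which ran from −0.86 to 1.03.

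The sign of the epithelial values depended on the probe set. The brightest 2 sets of H2-Aa had −0.18 and 0.01, and the dimmer ones −0.24 and −0.48. Likewise the brightest set of H2-Ab1 had 0.01 and the others −0.36 and −0.42. The 14 measured sets had a median of −0.21, with 9 below 0 and 5 above. The 3′ to 5′ ratio of actin was also higher on the colonized epithelial array, and whether it has a part in the disagreement was not tested. The members' median in epithelial cells was −0.22 when the sets of each gene were averaged, so its sign depended on how the sets were combined.

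**Figure D2:**
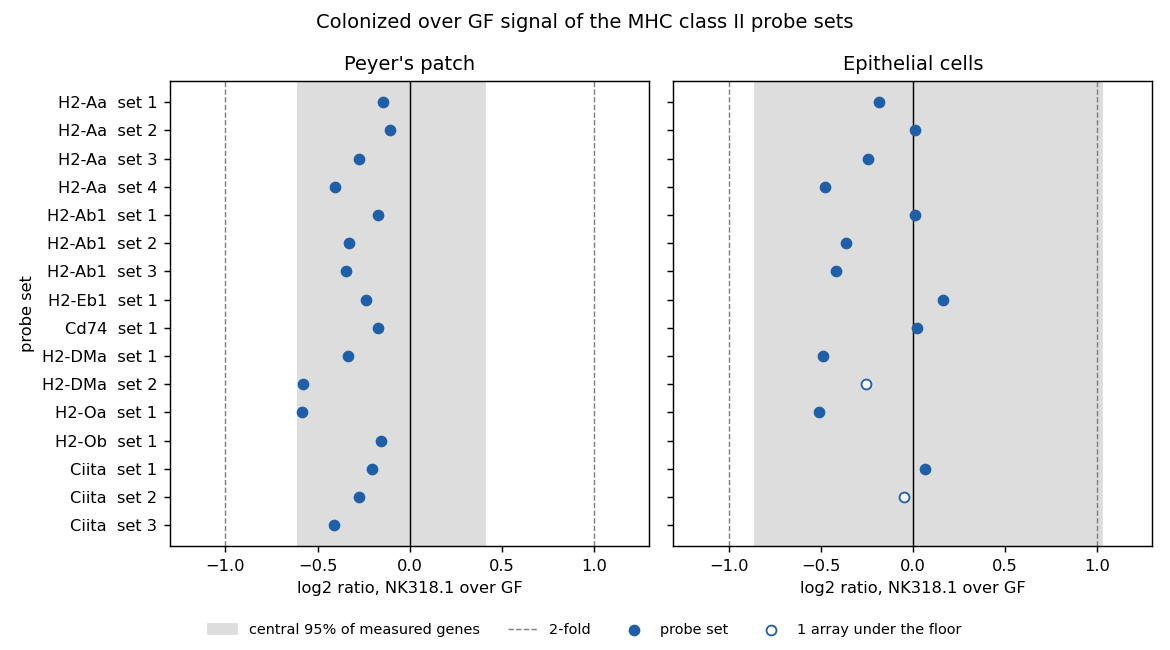
Log2 ratio of colonized (NK318.1) over GF signal for each probe set of the class II genes, in the Peyer's patch (left) and in epithelial cells (right), with the central 95% of measured genes in grey, 2-fold as dashed lines and open circles where 1 array lay under the floor. All 16 sets lie left of 0 in the Peyer's patch, from −0.59 to −0.11, whereas the 14 measured sets in epithelial cells lie on both sides of 0, from −0.51 to 0.16.

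These genes differed far more between the tissues than between GF and colonized mice. All 8 genes were at least 2-fold higher in the Peyer's patch than in epithelial cells, in GF mice, where 18.5% of 14036 measured genes were, and in colonized mice, where 16.8% of 14030 were. H2-Aa was 6.37-fold higher in GF mice and 6.54-fold in colonized mice by its brightest set, and the other sets gave 8.19-fold, 15.8-fold and 20.4-fold in GF and 7.55-fold, 16.6-fold and 19.9-fold in colonized mice. With the sets averaged its log2 ratio was 3.51 and 3.50 in place of 2.67 and 2.71. Cd74 was 9.55-fold and 8.33-fold higher, H2-Ab1 13.2-fold and 11.6-fold by its brightest set, and H2-Eb1 16.6-fold and 12.6-fold. The other sets of H2-Ab1 gave 17.9-fold and 17.7-fold in GF and 18.8-fold and 18.1-fold in colonized mice. The values for Ciita were 13.7-fold and 11.3-fold, and those for H2-DMa 12.4-fold and 13.7-fold. The dim second set of H2-DMa gave 3.42-fold and at least 2.72-fold, and with both sets averaged the log2 ratio was 2.70 in GF and in colonized mice in place of 3.63 and 3.78. H2-Oa stood at 34.2-fold and 32.5-fold. H2-Ob was at least 116-fold and 104-fold higher by its own set, as lower bounds against the floor. The set it shares with Gm20506 gave 25.3-fold and 18.0-fold. Over all measured genes, 95.4% in GF and 95.8% in colonized mice had a lower ratio than H2-Aa, which had the lowest ratio of the members by the brightest sets.

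Read the other way round, the epithelial signal was a measurable share of the Peyer's patch signal for each of the 8 genes but H2-Ob. It was 15.7% of the Peyer's patch signal for H2-Aa in GF mice and 15.3% in colonized mice by the brightest set, but 12.2%, 6.33% and 4.89%, and 13.2%, 6.03% and 5.01%, by the other sets, so the highest share of the list rests on which set is read. For Cd74 the values were 10.5% and 12.0%, and for H2-Ab1 7.60% and 8.63% by its brightest set. The other sets of H2-Ab1 gave 5.59% and 5.31%, and 5.65% and 5.52%, so the direction between GF and colonized mice depended on the set. H2-Eb1 had 6.03% and 7.96%, and Ciita 7.31% and 8.81%. For H2-DMa the values were 8.09% and 7.28% (29.3% and at most 36.7% by its dim second set). H2-Oa had 2.92% and 3.08%, and H2-Ob at most 0.860% and 0.959% by its own set. The set that H2-Ob shares with Gm20506 gave 3.96% and 5.56%. The median over the 8 genes was 7.46% in GF and 8.29% in colonized mice by the brightest sets. Signals of both tissues enter such a share. The members' median log2 ratio of colonized over GF signal was −0.19 in the Peyer's patch and 0.01 in epithelial cells. With the sets of each gene averaged these medians were −0.26 and −0.22.

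Pan leukocyte genes, and some T cell genes, were lower in the epithelial cells of colonized mice. The B cell genes had a median log2 ratio of −0.03, but their median signal in GF epithelial cells was 24.3, near the floor. With signals raised to the floor, most B cell genes could not show a fall as large as that of the pan leukocyte genes. Whether most B cell genes fell alike therefore cannot be read from these ratios. The brightest there were Blnk, with 348 in GF and 486 in colonized mice (0.48), and Ighm, with 166 and 138 (−0.26). The 7 pan leukocyte genes (Ptprc, Coro1a, Laptm5, Itgb2, Cd53, Cd52 and Arhgdib) had a median share of 3.25% in GF and 0.982% in colonized mice. All 7 were at least 2-fold lower in the colonized epithelial cells, from −3.55 for Ptprc to −1.26 for Cd53, as were 1.54% of the 13874 measured genes. Their summed signal was 921 in GF and 232 in colonized mice. The 11 T cell genes on the array had a median share of 6.28% and 3.29% and a summed signal of 798 and 455, and Cd3g (−3.62 against the floor), Cd8a (−2.15) and Cd3d (−1.92) were past 2-fold while Cd3e had 0.24. The 13 B cell genes had a median share of 2.92% and 1.88%, with a summed signal of 769 and 842. Blnk alone gave 348 and 486 of these sums. Of the 11 measured B cell genes, 7 were below 0 and 4 above, where 47.6% of all measured genes were below 0. In GF and in colonized epithelial cells, 2 and 5 of the 13 genes lay at or under the floor. Among the latter was Ms4a1, the gene of CD20, with 24.3 in GF and 13.0 in colonized mice, against 3969 and 4097 in the Peyer's patch. The part that leukocytes among the epithelial cells had in the epithelial class II signal was not tested.

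**Figure D3:**
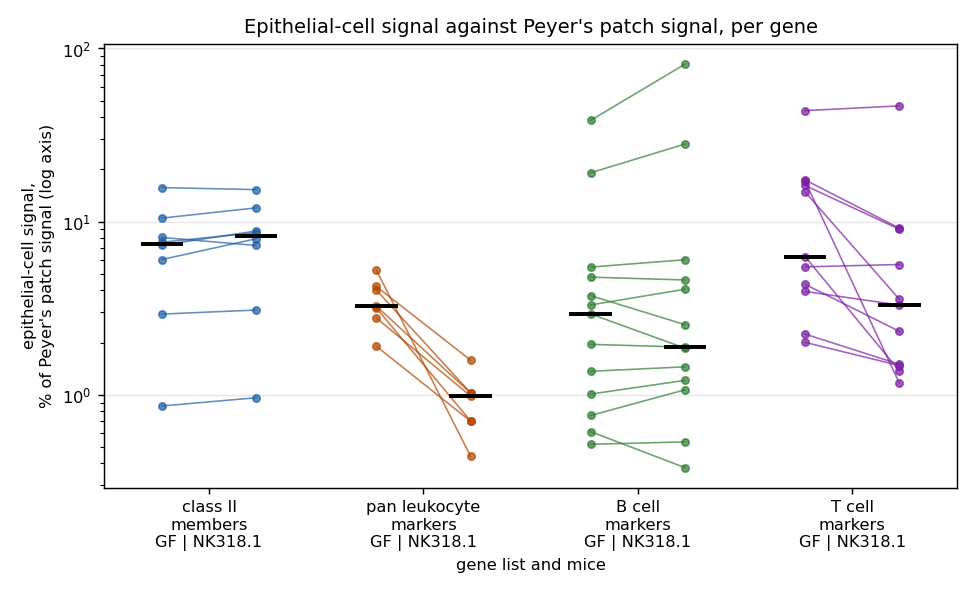
Epithelial-cell signal of each gene as a percentage of its Peyer's patch signal (log axis), in GF and colonized (NK318.1) mice, with a line joining the values of a gene, a bar at the median of the list and signals under the floor raised to it. By the brightest sets the class II genes have a median of 7.46% and 8.29%, while the pan leukocyte genes go from 3.25% to 0.982%. All 8 class II genes were lower in the colonized Peyer's patch, whose signal is the base of the percentage.

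Genes that work with class II molecules were mostly a little lower in the colonized Peyer's patch as well. Of 26 partner genes, all were measured, 19 were below 0 and 7 above, none was past 2-fold, and the median was −0.18. Of all measured genes, 57.2% were below 0. The lowest were the endosomal proteases Ctsl (cathepsin L, 454 in GF and 264 in colonized mice, −0.78), Lgmn (legumain, −0.62) and Ctsd (cathepsin D, −0.61). Ctss, the cathepsin that trims the invariant chain in B cells and dendritic cells, had 4083 and 3806 (−0.10). Ifi30, the thiol reductase of the endosome, had 2129 and 1672 (−0.35). The highest were the costimulatory gene Cd86 (206 and 296, 0.52) and Cd4 (0.21), and Rfx5, a subunit of the factor that binds the first box, had 643 and 740 (0.20).

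In epithelial cells 25 partner genes were measured, with a median of 0.02. Ctss had 1013 in GF and 898 in colonized mice (−0.17), and Ifi30 had 928 and 1174 (0.34). Ctsl (0.05) and Ctsd (0.05), low in the colonized Peyer's patch, stood near 0 here. The lowest was Lag3, an inhibitory receptor for class II on T cells, which was 31.0 in GF and under the floor in colonized mice (at least 2-fold lower). H2-Ea had −0.60 and Rfx5 −0.45 (95.9 and 70.4). Nfyb, a subunit of the factor that binds CCAAT, had 0.55, and H2-DMb2 had 0.77 by its brightest set but −0.57 and 0.18 by the others, all at signals under 50.

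The interferon γ axis, which induces Ciita, was also examined. Ifng itself lay under the floor on all 4 arrays. The median of the axis was −0.26 over 13 measured genes of the Peyer's patch. Ido1, an interferon-induced enzyme of tryptophan breakdown, was past 2-fold (38.7 in GF and under the floor in colonized mice, −1.32 against the floor), and Irgm1 had −0.65. Irf1 (675 and 719, 0.09) and Socs1 (0.05) were the highest. In epithelial cells the median was −0.18 and no gene was past 2-fold. There the lowest were the receptor chain Ifngr2 (−0.61) and the GTPase Igtp (−0.55), and the highest Ido1 (0.28) and Jak1 (0.19), while Irf1 had −0.09.

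Genes of class I presentation, which displays peptides made inside the cell, were set beside the class II genes. Their median was −0.15 over 14 genes of the Peyer's patch and none was past 2-fold, with Tapbp (tapasin, −0.35) and Psme1 (−0.31) the lowest and B2m (β2-microglobulin, −0.02) and Tap2 (0.00) the highest. In epithelial cells their median was −0.01, from −0.40 for B2m to 0.69 for the immunoproteasome subunit Psmb9, with Tap2 at 0.23. Nlrc5, the class I counterpart of Ciita, had 801 (GF) and 669 (colonized) in the Peyer's patch (−0.26), against 33.3 (GF) and 28.5 (colonized) in epithelial cells (−0.22).

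Cell type markers in the Peyer's patch lay on both sides of 0. Of the 13 B cell genes, 11 were below 0, where 57.2% of all measured genes were. Their median was −0.14 and their summed signal was 28387 in GF and 26146 in colonized mice. Pax5 (−0.75) and Blk (−0.62) were the lowest, and Ms4a1 (0.05) and Cd37 (0.13) the highest. The 11 dendritic cell genes had a median of −0.47 and a summed signal of 7018 and 4744. Among them Flt3, the receptor that sustains dendritic cells, was past 2-fold (210 and 98.9, −1.09), Batf3 had −0.74, and Itgax, the gene of CD11c, had 93.9 and 65.2. The macrophage genes, of which 12 were measured, had a median of −0.41 and a summed signal of 6614 and 5241 over 13 genes, with Cd14 (−0.75) and C1qa (−0.72) lowest and Fcgr1 (0.29) highest. The 11 T cell genes had a median of 0.23, with Trat1 (0.40) and Thy1 (0.39) highest and Cd8a (−0.09) lowest, and a summed signal of 8040 and 9377. The 7 pan leukocyte genes lay between 0.02 and 0.24. The part that these cell types had in the members' ratios was not tested.

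In epithelial cells the lists of antigen-presenting cells had medians near 0, though most B cell genes lay too near the floor to show a large fall. The median was −0.03 for the 11 measured B cell genes, from Cd79a (28.5 in GF and 17.6 in colonized mice, −0.70) to Blnk (0.48). It was −0.11 for 8 dendritic cell genes, of which Cd83 (115 and 54.6, −1.08) was past 2-fold and Batf3 (0.89) was the highest. It was −0.20 for 11 macrophage genes, of which the lysozyme gene Lyz2 (1265 and 298, −2.09) was past 2-fold and C1qc (0.40) was the highest. The summed signal of the dendritic cell genes was 316 and 264, and that of the macrophage genes 1901 and 935. Lyz2 alone gave 1265 and 298 of the macrophage sums, and Cd83 alone gave 115 and 54.6 of the dendritic cell sums. The 12 epithelial genes had a median of −0.24, with Vil1 (−0.65) and Krt20 (−0.59) lowest and Krt18 (0.43) highest.

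**Figure D4:**
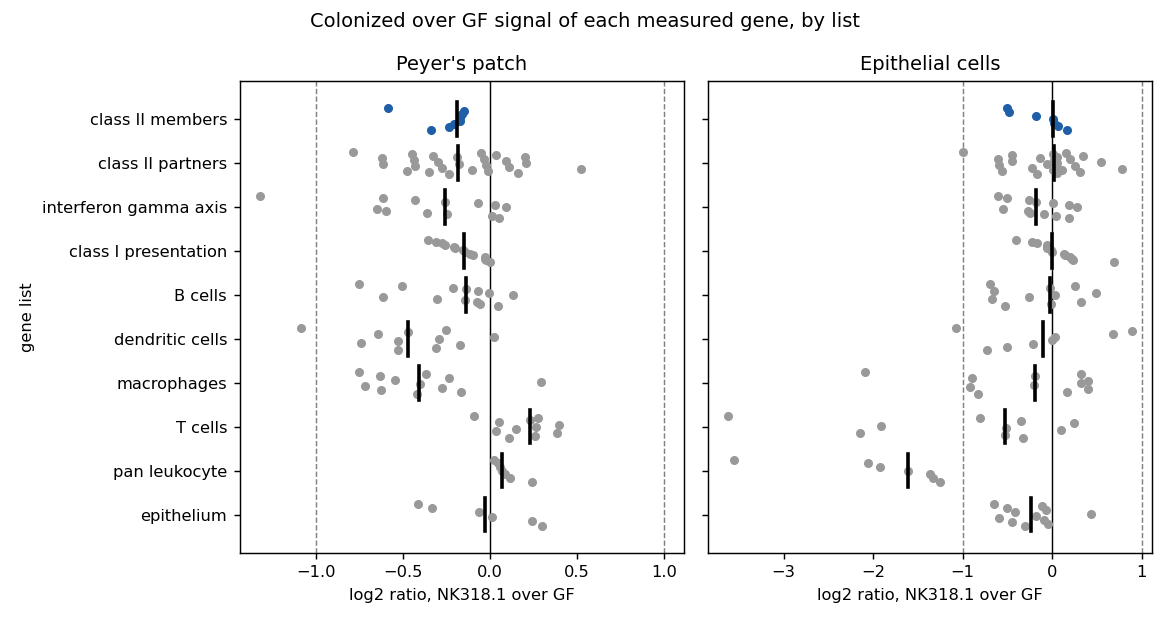
Log2 ratio of colonized (NK318.1) over GF signal of each measured gene (points) by gene list, with the median as a bar and 2-fold as dashed lines, in the Peyer's patch (left) and epithelial cells (right, with a wider axis). The class II genes (blue) lie between −0.59 and −0.15 in the Peyer's patch and between −0.51 and 0.16 in epithelial cells, where the pan leukocyte genes lie between −3.55 and −1.26.

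The genes outside the set whose profile was nearest to the members' median over the 4 arrays were also listed. Likeness was the root mean square distance between log2 signals, each centred on its own mean, so that a gene's level plays no part. Among 8477 genes above 2 times the floor on all 4 arrays, the nearest were Glipr1 (0.085), Ccr6 (0.099), Syk (0.099), Crlf3 (0.10) and Scd1 (0.15). Among 9657 genes that passed the same limit on both Peyer's patch arrays alone, the nearest was Cd40 (0.038), whose signals were 320 and 283 on those arrays against 24.4 and 24.5 in epithelial cells. Of the next 4 genes, Ankrd33b, Rnase6 and Abtb2 had epithelial signals under the floor, so their distances depend on it, and the other was Glipr1. The profile has 4 points and is set mostly by the difference between tissues, so many genes of the Peyer's patch can come near to it.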

How the data were processed

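Total RNA was extracted with Trizol, labelled with biotin and hybridized to Affymetrix 3′ expression arrays. From the scans the authors computed 1 linear intensity for each probe set with MAS5, and these are the deposited values. Its version and scaling, and a genome build, were not given in the sources used here. Of 45037 probe sets beside 64 controls, 932 name several genes and 9160 none. Genes were assigned by the annotation table of the platform and named by their RefSeq symbol, or by the platform's symbol where RefSeq had none.

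The intensity was used without further scaling. Where several probe sets name a gene, the brightest stood for it (highest average of log2 intensity on the 4 arrays). As the floor, the 40th percentile of each array was taken and the median of these used, 15.5, and a gene was measured where either array lay above it. Signals below were raised to it. With 1 array per group no p-value was computed, and genes were counted at 2-fold, the limit named in the study's methods. Depth does not apply to arrays, whose number limits the precision.

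All members were described with every probe set. From each other list the 2 highest and 2 lowest ratios per tissue, genes past 2-fold and some fixed genes could be named. A few more genes are given beside these. Members, lists, alternatives and motifs were chosen with earlier results of these data known. The procedure was tested on simulated data. The values were also computed after quantile normalization or median centring, with the floor moved to the 25th or the 60th percentile or left out, with the mean over probe sets, without less specific sets (with s, x or a in their names), and with limits of 1.5-fold and 4-fold. Promoters and gene positions were read from RefSeq (GRCm38.p6). Python 3.11.15, numpy 2.4.6, pandas 2.3.3 and matplotlib 3.10.9 were used.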

Additional observations from a re-analysis of the deposited data

How the results depend on the processing

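Over the alternatives, 265 of 266 ratios of single members and 28 of 28 medians kept their side of the fold limit. Most of these values lay far from that limit, and the floor settings did not move the brightest members, so this count is a weak check. The median in epithelial cells, far from that limit, changed sign in 6 settings. Of 54 counts of members, 50 were unchanged. At a limit of 1.5-fold, 1 member was lower in the colonized Peyer's patch, H2-Oa (−0.587), as were 2.74% of all measured genes, and with no floor 1 member was at least 2-fold lower in colonized epithelial cells, H2-Ob, whose signals both lie under the floor used otherwise (1.54% of all genes). Without the less specific probe sets 5 members were left, of which 5 were at least 2-fold higher in the Peyer's patch than in epithelial cells in GF mice (18.6% of all genes) and 5 in colonized mice (17.4%). H2-Aa, H2-Ab1 and Cd74 dropped out, since all their sets are of the less specific kind, so their values could not be checked in this way. In the Peyer's patch no member changed sign, and the members' median ran from −0.27 to −0.16. In epithelial cells the median of 0.01 became −0.01 with median centring, −0.04 with quantile normalization, −0.09 with a floor at the 60th percentile or none, −0.22 with the mean over probe sets and −0.27 without the less specific sets. No paired analysis was possible because there was only 1 array for each group. For the same reason none of the differences could be set against a spread between mice, and a dim signal such as that of H2-Ob in epithelial cells was not detectable rather than absent.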
